A study of Paralichthys olivaceus with 22 samples.

Results

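Kidney RNA of Japanese flounder (Paralichthys olivaceus) taken 6 h after an S. iniae FKC preparation was set against kidney RNA taken 6 h after PBS. The comparison holds the 3 arrays titled S. iniae FKC at 6 h and the 4 arrays titled PBS at 6 h, which are 7 of the 22 arrays of the series. PBS, a buffered salt solution, was the control, and FKC is the term of the labels for the bacterial preparations. The other 15 arrays measured E. tarda FKC at 6 h (3 arrays), E. tarda FKC at 12 h (4), S. iniae FKC at 12 h (4) and PBS at 12 h (4). The labels name no strain, dose, age or genotype of the fish. Whether the numbered samples of a group are different fish is not stated, so a p-value here reflects the spread among these samples, part of which may be technical.

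The kidney of a bony fish is a blood-forming and immune organ as well as an excretory one, and its head part holds developing white blood cells and phagocytes. Streptococcus iniae is a Gram-positive bacterium that causes streptococcosis in farmed fish, and Edwardsiella tarda is a Gram-negative bacterium that causes edwardsiellosis. Contact of phagocytes with bacterial material typically starts transcription of signalling and antibacterial genes within hours. None of the 14478 names on the array matched the gene table used here, so no transcript is given a gene name or a role, and the labelled tissue could not be checked against markers. Probes are named by their contig or by the GenBank entry that the array design gives for them.

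Each sample was labelled with Cy3 and hybridised to 1 array of 14481 probes. A level is the log2 of the processed spot intensity minus the 75th percentile of the array, so a level of 0 is the brightness of the 75th percentile and a difference of 1 is a 2-fold change. Levels of different probes are not comparable with each other. A probe is called above background where the scanner software marked it well above background, and 11066 probes had that mark on at least 3 of the 22 arrays and were tested. Between 10047 and 10393 probes were above background on the S. iniae arrays and between 9134 and 9795 on the PBS arrays. The 3 S. iniae arrays lay on slide 1 and the 4 PBS arrays on slide 3. Treatment and slide therefore cannot be told apart in any difference between a preparation and PBS given here.

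With the processing described above, the response at 6 h was small. By limma with Benjamini-Hochberg adjustment and a threshold of 0.05, 176 probes were called, which was 1.59% of the probes tested. Over the other ways of processing given below, the calls ran from 34 to 805. An unadjusted limma p under 0.05 was found for 1524 of the 11066 probes. Of the 176 calls, 115 were higher after S. iniae FKC (1.04% of the probes tested) and 61 were lower (0.551%). The rises were the larger changes, with a median of 1.84 on the log2 scale against -1.23 for the falls. A rise of at least 4-fold was found in 49 probes and of at least 16-fold in 8, and a fall of at least 4-fold in 14 and of at least 16-fold in 0. The median change of all tested probes was -0.00305. As this is RNA of kidney tissue, fewer cells of a type and less RNA per cell cannot be told apart. The share of calls that were higher was 65.3%. It was 63.4% among probes above background on all 22 arrays and 62.7% among those above background on at least 3 of the 7, but 46.9% with no filter on dim probes (134 higher and 152 lower) and 53.2% with normexp and quantile normalization (428 higher and 377 lower).

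**Figure D1:**
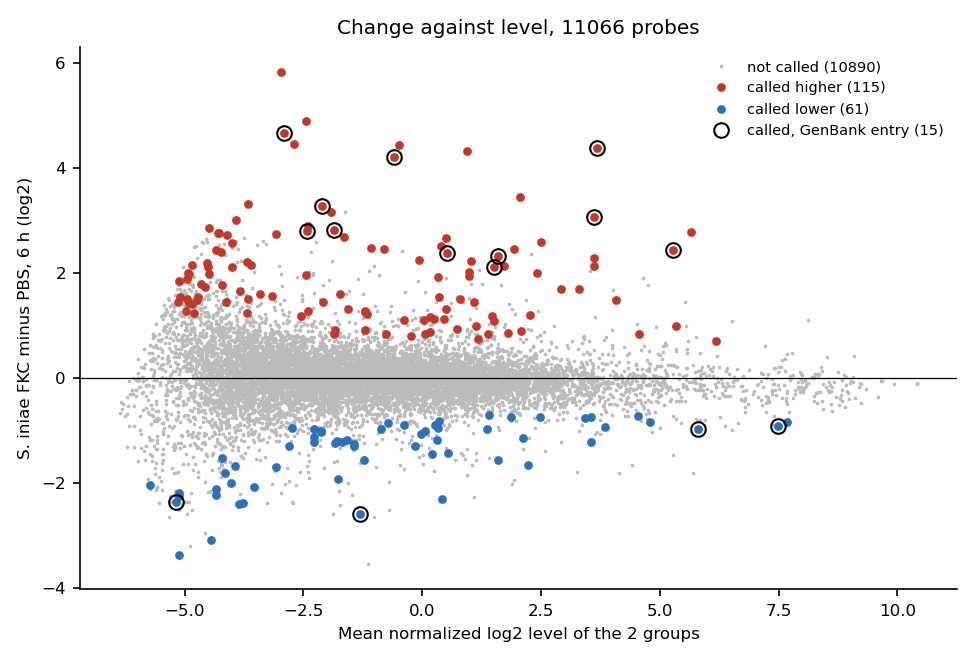
Change at 6 h (S. iniae FKC mean of 3 arrays minus PBS mean of 4 arrays, log2) against the mean normalized log2 level of the 2 groups for the 11066 probes tested. Red points are the 115 probes called higher, blue points the 61 called lower, and black rings the 15 called probes that carry a GenBank entry, 11 above and 4 below the line at 0.

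Many of the largest changes were at the edge of detection. Of the 115 rises, 37 were not above background on any PBS array, and of the 61 falls, 13 were not above background on any S. iniae array. The largest rise of all, 5.83 on the log2 scale, was such a probe. Its size is at least 14.3-fold when each PBS array is taken at its dimmest level above background, or at the measured level if brighter. The largest fall, -3.38, was not above background on any S. iniae array, and is at least 2.28-fold. A probe without the mark can lie above that dimmest level, so "at least" holds here only for the levels so taken. A bound of this kind could be given for 24 of the 37 rises, with a median of 1.89-fold, and it reached 2-fold in 8. In the rest of the 37 the S. iniae mean did not exceed the level taken for PBS. The dimmest level still above background was -4.13 to -3.73 on the PBS arrays and -4.68 to -4.54 on the S. iniae arrays. Among probes above background on all 7 arrays, 64 rose and 45 fell, and 23 of these rises and 2 of these falls were at least 4-fold. The number of probes above background moved with the group, as given above, and its part in the calls near background was not tested.

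The 4 probes that led the changes, taken among calls without overlap and above background on all 7 arrays, were 2 contigs and 2 GenBank entries. The probe CUST_9569_PI426483990 of contig JFC00907_1_code lay at -0.07, 2.76 and 2.50 on S. iniae replicates 1, 2 and 3, and at -2.61, -2.69, -3.03 and -2.53 on PBS replicates 1 to 4. S. iniae replicate 1 was well below the other two and still above every PBS array. The rise was 4.44 (SE 0.61, limma adjusted p = 0.000578), or 21.7-fold, from -2.71 ± 0.22 (SD, n = 4) to 1.73 ± 1.56 (SD, n = 3).

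The probe of GenBank entry AB111860 showed the opposite arrangement of spread. It lay at 5.69, 5.82 and 6.07 after S. iniae FKC and at 0.50, 0.54, 1.56 and 3.35 in PBS. The 3 S. iniae arrays were close together, and PBS replicate 4 stood apart from the other PBS arrays in the direction of the S. iniae arrays. The rise was 4.37 (SE 0.50, limma adjusted p = 0.00017), or 20.7-fold, from 1.49 ± 1.33 (SD, n = 4) to 5.86 ± 0.19 (SD, n = 3).

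The largest fall by this rule was that of GenBank entry EF198069. It lay at -3.20, -1.88 and -2.77 after S. iniae FKC and at -0.26, -0.05, 0.33 and -0.08 in PBS. The groups were separated by 1.62, while the S. iniae arrays spread over a range nearly as wide. The fall was -2.60 (SE 0.56, limma adjusted p = 0.0214), or 6.08-fold, and it no longer passed without S. iniae replicate 1, S. iniae replicate 3 or PBS replicate 3, with an adjusted p of up to 0.0999. The probe CUST_6336_PI426483990 of contig JFC03290_1_code lay at -0.47, -0.73 and -0.99 after S. iniae FKC and at 1.67, 1.73, 1.76 and 1.16 in PBS. Both groups were tight, and PBS replicate 4 was the lowest control. The fall was -2.31 (SE 0.31, limma adjusted p = 0.000576), or 4.95-fold, and its adjusted p stayed at or below 0.00759 when any 1 of the 7 arrays was left out.

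**Figure D2:**
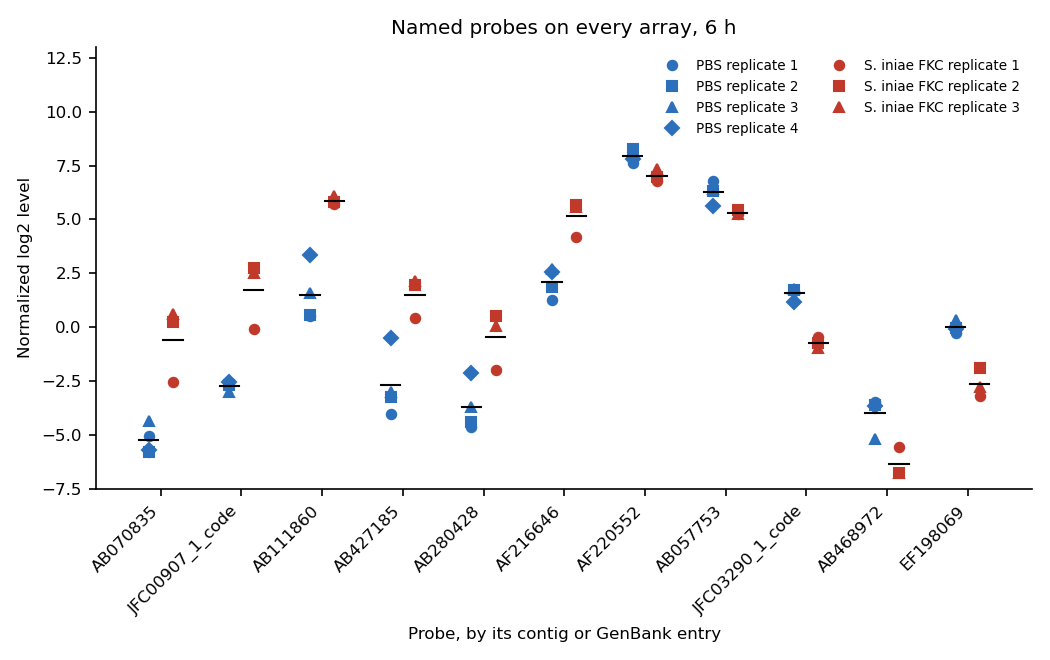
Normalized log2 level of each of the 11 probes named by rule on the 4 PBS arrays (blue) and the 3 S. iniae FKC arrays (red) at 6 h, with a symbol for each replicate and a black bar at the group mean; levels of different probes are not comparable. No probe has overlapping groups, S. iniae replicate 1 is low for JFC00907_1_code (-0.07) and AB070835 (-2.55), and PBS replicate 4 is high for AB111860 (3.35) and AB427185 (-0.50).

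The calls rested on single arrays to different degrees. Without S. iniae replicate 2 the count was 51, without replicate 3 it was 73, and without replicate 1 it was 148. Without PBS replicates 2, 3 and 4 it was 224, 88 and 158, and without PBS replicate 1 it was 68 higher and 39 lower. A fit without 1 array also tests with fewer samples, and it called some probes that the fit of all arrays did not. Of the 176 calls, 48 were kept without S. iniae replicate 2, 66 without replicate 3 and 110 without replicate 1. For the PBS arrays the calls kept ranged from 84, without replicate 3, to 148, without replicate 2.

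**Figure D3:**
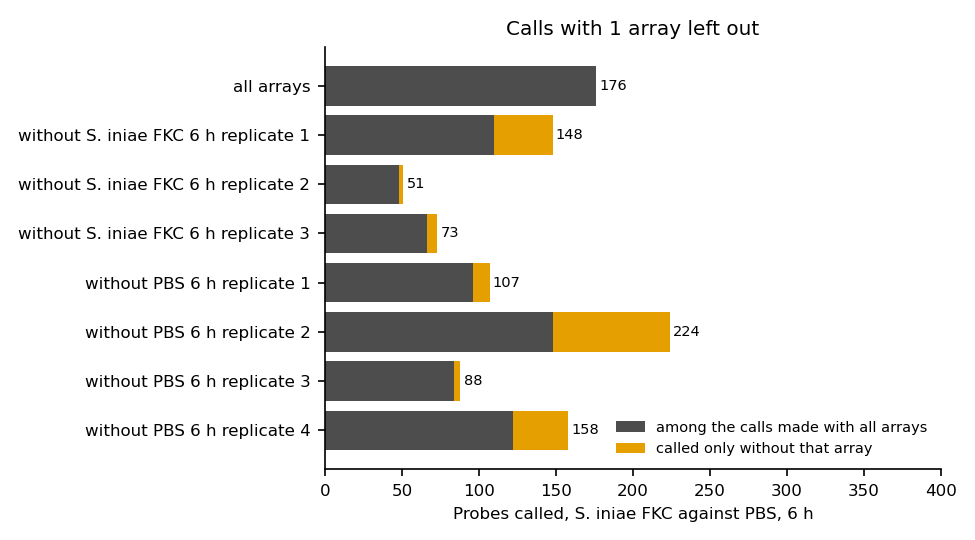
Number of probes called for S. iniae FKC against PBS at 6 h with every array and with each of the 7 arrays left out in turn. The dark part of a bar counts probes among the 176 called with every array and the orange part counts probes called only without that array; the dark part is shortest without S. iniae replicate 2 (48) and longest without PBS replicate 2 (148).

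A core of 39 probes, 31 higher and 8 lower, was called in all 7 of these fits, and 87 were called in 3 or fewer. The core had the larger changes, with a median size of 2.31 on the log2 scale against 1.44 for the other 137 calls. It took in 10 of the 15 calls of at least 8-fold and 2 of the 36 calls below 2-fold. The groups of the core were separated by a median gap of 1.2 between their nearest arrays, and 23 of the 39 were above background on all 7 arrays. Large changes and wide gaps pass such fits more easily. The sizes and the gap therefore follow in part from the rule that defines the core. Of the 4 leading probes, JFC00907_1_code, AB111860 and JFC03290_1_code were in this core, and EF198069 was called in 4 of the 7 fits. The fit of the 7 arrays alone, which estimates the spread from these 7 only, called 34 probes, 30 of them among the 176. In that fit JFC03290_1_code and EF198069 passed with limma adjusted p of 0.0129 and 0.0287. JFC00907_1_code and AB111860 did not, at 0.0513 and 0.0528.

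Across the probes tested, 16.2% had no overlap between the 3 S. iniae and the 4 PBS arrays, and 171 of the 176 called probes had none. The calls were made from these same arrays, so the separation of the called probes follows largely from the calling.

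Among the called probes, S. iniae replicate 1 was most often the S. iniae array nearest to PBS. This was so in 64 of the 115 rises and in 32 of the 61 falls. Across the probes tested it was the lowest of the 3 in 31.2%, a share that applies to the rises only. No share over all probes is given for the falls. In the 49 rises of at least 4-fold, replicate 1 lay a median of 2.22 above the PBS mean, against 2.82 for replicate 2 and 3.08 for replicate 3, and it was the lowest of the 3 in 33. In the 66 smaller rises these medians were 1.16, 1.43 and 1.35, and in the 115 rises together 1.72, 1.79 and 1.75. Among the PBS arrays, replicate 4 was the highest in 46 of the 115 rises, and it was the highest in 23.8% of the probes tested. These medians use the arrays that made the calls and describe them without a test.

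Some called probes ran together across the arrays. Deviations from the group means correlated above 0.95 over the 22 arrays in 7 pairs of called probes, which took in 11 probes. GenBank entries AB198061 and AY533022 formed 1 pair (r = 0.984), and each also ran with contig JFC06455_1_code (0.987 and 0.975). GenBank entry AB070837 ran with contig JFC00783_1_code (0.953). The arrays of a group share a slide, and these correlations are a description. Whether the probes of a pair report separate transcripts was not tested.

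Probes named by a GenBank entry were 412 of the 14481 on the array, from 409 entries, and 320 of them were tested. Of the 320, 11 rose and 4 fell, which was 4.69% against 1.5% (161 of 10746) of the other probes and 1.59% of all. These entries were placed on the array by its designers and are not a sample of the transcriptome. The median change of the 320 was -0.0897 against -0.00305 for all tested probes. Of the 20 largest rises among all calls 7 carried a GenBank entry, and of the 20 largest falls 2 did. GenBank probes were 2.89% of the probes tested and 8.52% of the 176 called. Of the 15 called GenBank probes 13 had a fitted change of at least 4-fold, against 63 of all 176. Such a fitted size is not a measured one in AB070835 and AB468972, nor in 17 of the 49 rises and 10 of the 14 falls behind the 63, because 1 group was not above background on any array. They were detected about as often as the rest, with 77.5% of the 320 above background on all 7 arrays against 74.5% of all tested probes. The groups did not overlap in 61 of the 320 (19.1%), close to the 16.2% over all probes.

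Of the GenBank probes that rose, AB070835 had the largest fitted change. It lay at -2.55, 0.21 and 0.60 after S. iniae FKC and at -5.06, -5.80, -4.38 and -5.68 in PBS. No PBS array was above background for this probe and all 3 S. iniae arrays were. With each PBS array taken at its dimmest level above background, the rise is at least 9.99-fold in the main processing (fitted change 4.65, SE 0.63, limma adjusted p = 0.000578). With normexp and quantile normalization together the fitted changes of AB070835, AB427185 and AB280428 were 1.93, 2.74 and 1.64, and that of EF198069 was -1.71. That setting adds an offset of 50 to the signal, which by itself makes log2 differences of dim probes smaller. The probe of AB427185 lay at 0.42, 1.96 and 2.13 against -4.02, -3.25, -3.03 and -0.50. PBS replicate 4 again stood toward the S. iniae arrays, 0.92 below the lowest of them, and 3 of the 4 PBS arrays were above background. The fitted rise was 4.20 (SE 0.62, limma adjusted p = 0.00123).

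The probe of AF216646 was bright on every array. It lay at 4.20, 5.65 and 5.59 after S. iniae FKC and at 1.24, 1.88, 2.68 and 2.55 in PBS, with replicate 1 the lowest of the S. iniae arrays. The rise was 3.06 (SE 0.37, limma adjusted p = 0.000245), or 8.32-fold, and the call was kept without any 1 of the 7 arrays. The probe of AB280428 lay at -1.99, 0.51 and 0.06 against -4.63, -4.42, -3.72 and -2.14. The groups were separated by 0.16, between S. iniae replicate 1 and PBS replicate 4, and 2 of the 4 PBS arrays were above background. Its rise of 3.26 (SE 0.61, limma adjusted p = 0.00873) was lost without S. iniae replicate 2 or 3, with an adjusted p of up to 0.0793.

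The 6 remaining GenBank probes that rose fall outside the rule for naming and are given so that every GenBank call is accounted for. AB297385 rose by 2.82 (SE 0.56), AB109394 by 2.78 (SE 0.51), AB070837 by 2.44 (SE 0.38), AB040448 by 2.38 (SE 0.47), AY533022 by 2.32 (SE 0.45) and AB198061 by 2.11 (SE 0.45), with limma adjusted p between 0.0019 and 0.0195. AB109394 was above background on 1 of the 4 PBS arrays and AB297385 on 3 of 4, and with normexp and quantile normalization together their changes were 0.99 and 1.77. The other 4 were above background on all 7 arrays. AB070837 was called in all 7 fits that left out an array, and the other 5 in 4 to 6 of them. The probe of AB040448 lay at 0.26, 2.23 and 2.63 against -0.75, -0.55, -0.39 and -0.99, so that S. iniae replicate 1 was 0.65 above the highest control. The S. iniae arrays of AB198061 were tight, at 2.38, 2.65 and 2.67, against -0.09, 0.40, 1.01 and 0.52 in PBS. Its call was lost without S. iniae replicate 2, S. iniae replicate 3 or PBS replicate 1. With PBS of both times as control it did not pass (limma adjusted p = 0.0532). S. iniae replicate 1 was the lowest S. iniae array in 10 of the 11 GenBank rises, all but AB297385.

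After EF198069, the next of the 4 GenBank falls was AB468972, which lay at -5.54, -6.79 and -6.79 after S. iniae FKC and at -3.50, -3.64, -5.21 and -3.65 in PBS. It was not above background on any S. iniae array and above it on 3 of the 4 PBS arrays. With each S. iniae array taken at its dimmest level above background, the fall is at least 1.54-fold in the main processing (fitted change -2.38, SE 0.42, limma adjusted p = 0.00549). This bound takes PBS replicate 3, which was not above background, at its measured level. The call was kept in 6 of the 7 fits that left out an array. The fitted change was -1.91 with quantile normalization and -0.37 with normexp and quantile normalization together, and in the latter it did not pass (adjusted p = 0.0572). With PBS of both times as control it was -1.48 and did not pass (limma adjusted p = 0.149). From 6 h to 12 h the PBS level of this probe itself fell, by a fitted -1.80 (SE 0.39, limma adjusted p = 0.0266). It was not above background on any PBS array of 12 h, so this is not a measured size. The PBS arrays of 6 h that made the call are used again in this comparison, which favours a fall.

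The probes of AB057753 and AF220552 were bright and changed by about the same amount. AB057753 lay at 5.24, 5.46 and 5.23 against 6.78, 6.32, 6.42 and 5.62, a change of -0.97 (SE 0.23, limma adjusted p = 0.0343). AF220552 lay at 6.79, 6.97 and 7.32 against 7.64, 8.28, 8.02 and 7.82, a change of -0.92 (SE 0.22, limma adjusted p = 0.0396). Each was called in 1 of the 7 fits that left out an array, with an adjusted p of up to 0.145 and 0.144. AF220552 is 1 of 3 entries with 2 probes, and its probes disagreed. The called probe, CUST_2_PI420312477, has 10 spots on the array, while the other, with 1 spot, changed by 0.02 (SE 0.20, limma adjusted p = 0.982). The probes of AF220549 and of AF220554, the other two such entries, were not called.

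The same preparation was measured at 12 h on other arrays, with 4 S. iniae arrays on slide 2 and 4 PBS arrays on slide 3. No array is common to both times, but the PBS arrays share a slide and the spread of a probe was estimated once from all 22 arrays. At 12 h 644 probes (5.82%) rose and 589 (5.32%) fell. Of the 115 rises at 6 h 61 (53.0%) were called higher at 12 h, which is 9.47% of the 12 h list. Of the 61 falls 19 (31.1%) were called lower, which is 3.23% of that list.

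The values at 12 h are given by how the 6 h calls stood without single arrays. Of the 31 rises in the core 21 (67.7%) were called higher at 12 h, with medians of 2.66 at 6 h and 1.99 at 12 h. For the 54 rises kept in 3 or fewer fits the count was 22 (40.7%), with medians of 1.41 and 0.558. For the falls it was 5 of the 8 in the core (62.5%) and 6 of the 33 kept in 3 or fewer (18.2%), with medians at 12 h of -1.28 and -0.254. The difference between these shares was not tested, and probes with a small estimated spread pass more easily at both times. Called the other way at 12 h were 3 of the 115 rises and 1 of the 61 falls. Of the 49 rises of at least 4-fold 31 were called higher at 12 h, and of the 14 falls of that size 3 were called lower, most of these falls having had a group below background at 6 h.

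**Figure D4:**
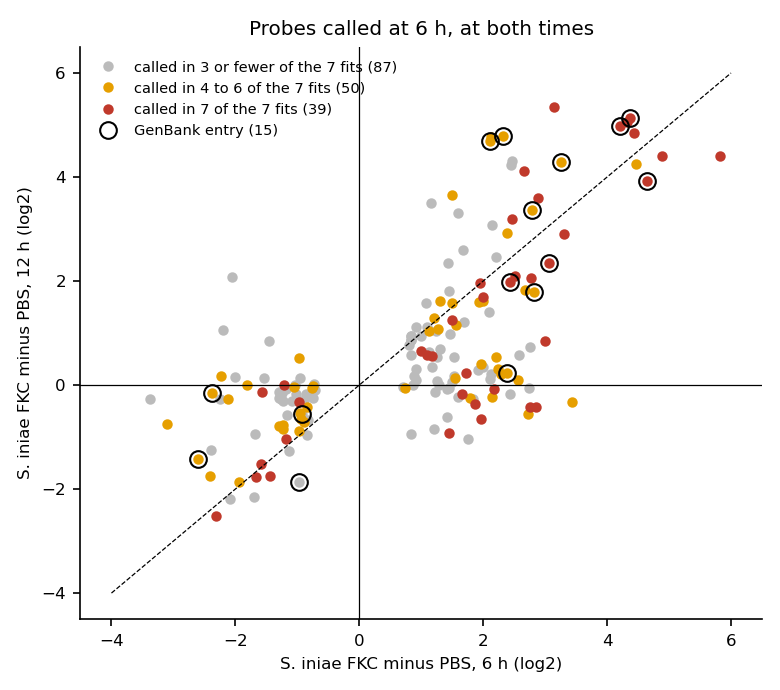
Change at 12 h against change at 6 h (S. iniae FKC minus PBS, log2, both axes) for the 176 probes called at 6 h, with a dashed line of equal change. Colours give in how many of the 7 fits without 1 array a probe was called (39 in 7, 50 in 4 to 6, 87 in 3 or fewer) and rings mark the 15 GenBank probes, of which the 11 rises lie above 0 at both times.

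Of the 11 GenBank rises 10 were called higher at 12 h, with a median change of 2.82 at 6 h and 3.92 at 12 h. The largest at 12 h was AB111860, at 5.13 (SE 0.46, limma adjusted p = 1.27e-06), and it stood at 6.01 ± 0.34 (SD, n = 4) after S. iniae FKC at 12 h against 5.86 ± 0.19 at 6 h. The exception was AB040448, at 0.23 (SE 0.44, limma adjusted p = 0.809). The test of the change between the times, which called 105 probes (0.949%), gave -2.15 (SE 0.65, limma adjusted p = 0.109) for it, so the loss of this rise is not shown. That test passed for AB198061, whose fitted effect was larger at 12 h by 2.58 (SE 0.61, limma adjusted p = 0.048). It was 2.11 at 6 h and 4.69 at 12 h. For AY533022, which ran with AB198061, the difference of 2.46 (SE 0.62) had an adjusted p of 0.0641. The S. iniae arrays lay on slide 1 at 6 h and on slide 2 at 12 h. Time and slide therefore cannot be told apart in this test.

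Among the named falls, 2 were called again at 12 h. JFC03290_1_code stood at -2.52 (SE 0.28, limma adjusted p = 1.92e-05) and AB057753 at -1.86 (SE 0.21, limma adjusted p = 2.14e-05) at 12 h. EF198069 stood at -1.42 and AF220552 at -0.56, with adjusted p of 0.0876 and 0.0837. AB468972 stood at -0.15 (SE 0.39, limma adjusted p = 0.861) and was not above background in either group at 12 h.

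At 6 h the E. tarda arrays lay on the same slide as the S. iniae arrays, in another row, and are compared with the same PBS arrays. The probes were chosen by the S. iniae arrays that are used again here, so the differences below are a description. AF216646 stood at 5.21 ± 0.11 (SD, n = 3) after E. tarda FKC and 5.15 ± 0.82 (SD, n = 3) after S. iniae FKC, a difference of 0.06 (SE 0.39, limma adjusted p = 0.939). AB111860 stood at 5.27 ± 0.20 (SD, n = 3) after E. tarda FKC, lower by -0.59 (SE 0.54, limma adjusted p = 0.501) than after S. iniae FKC. AB198061 stood at 6.99 ± 0.44 (SD, n = 3) against 2.57 ± 0.16 (SD, n = 3), a difference of 4.42 (SE 0.48, limma adjusted p = 6.02e-06). AB468972 stood at -3.98 ± 0.42 (SD, n = 3) after E. tarda FKC, above background on those 3 arrays, and at -3.999 ± 0.81 (SD, n = 4) in PBS. With the S. iniae arrays taken at their dimmest level above background, its level after E. tarda FKC was at least 1.56-fold above S. iniae FKC. JFC00907_1_code stood at 4.14 ± 0.27 (SD, n = 3) after E. tarda FKC, and its difference from S. iniae FKC was 2.42 (SE 0.65, limma adjusted p = 0.0181).

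Measures of the arrays themselves also differed between the sides. Spots that repeat a probe within an array had a median SD of 0.133 to 0.256 on the S. iniae arrays and 0.055 to 0.0725 on the PBS arrays, without overlap. The same spread was 0.133 to 0.261 over the 6 arrays of slide 1 and 0.0542 to 0.09 over the 8 of slide 2. The root mean square of the scanner software's detrending fit was 0.146 to 0.243 and 0.0698 to 0.0796, also without overlap. Exact two-sided permutation tests over the 7 arrays gave p = 0.0571 for each of these and for the number of probes above background, which is the smallest p that 35 arrangements allow (0.114 adjusted over 6 measures).

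The 7 spike-in probes, which measure added control RNA, moved by -0.52 to 0.14, with an unadjusted limma p under 0.05 in 1 of them. In 32 blocks of spots by position on the array the median change ran from -0.26 to 0.20, and each block held between 1 and 10 called probes. With every array centred within these blocks, a step chosen after seeing the data, 169 probes were called and 140 of them were among the 176. Levels across the tested probes correlated at 0.952 to 0.972 between S. iniae arrays, 0.957 to 0.973 between PBS arrays and 0.932 to 0.963 between the groups. The part of the slide in the calls cannot be told apart from that of the preparation.

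**Figure D5:**
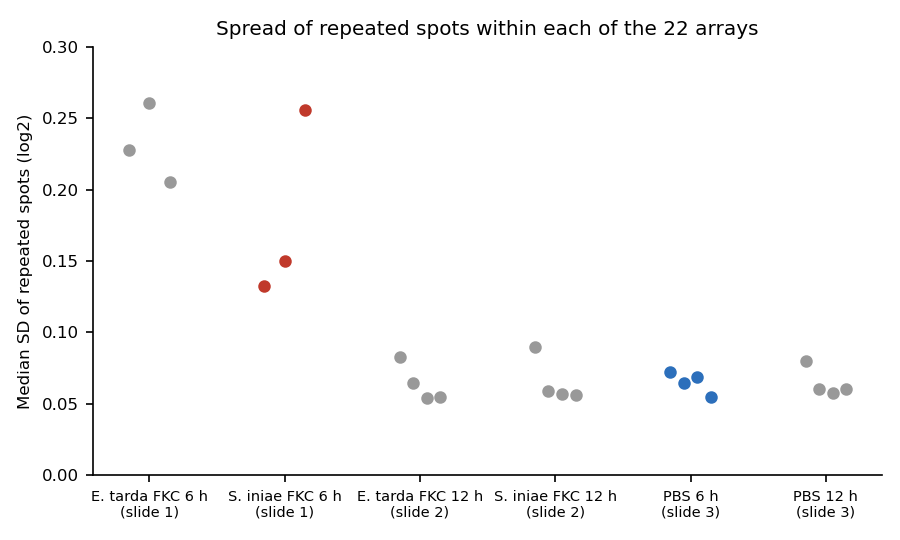
Median SD of repeated spots (log2) within each of the 22 arrays, by group and slide, with 1 point for each array. The S. iniae FKC arrays of 6 h (red, 0.133 to 0.256) and the E. tarda FKC arrays of 6 h, both on slide 1, lie above the PBS arrays of 6 h on slide 3 (blue, 0.055 to 0.0725).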

How the data were processed

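Spot intensity in the deposited scanner files was background-subtracted and detrended by Feature Extraction 10.7.3.1, per the file headers. Version 9.5.3.1 of the same software stands in the submitters' processing notes. The authors also deposited log2 values, of which 99.99% on the 7 arrays lay within 0.1 of log2 processed signal minus the 75th percentile and the PBS median; they served as an alternative. Spots with an outlier mark were dropped (7 values on the 7 arrays are then missing), and spots of a probe were averaged.

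Means of the 6 groups were estimated over 22 arrays with limma 3.58.1 (R 4.3.3; 16 residual degrees of freedom) and tested with eBayes, with p-values adjusted over 11066 probes. The fit was run on simulated arrays with known changes, independent values and no slide effect. That run does not test the calls given here. Named probes were the 2 largest rises and 2 largest falls among called, non-overlapping probes above background on all 7 arrays, and up to 5 rises and 5 falls with GenBank entries. The comparison, rules and lists were chosen with earlier results of these data known. Planned gene lists had no matched name, so none was used. The files hold no probe sequence that was used here. Scan time is 1 per slide. Alternatives covered scaling, background, dim probes, arrays fitted, replicate block, array weights, outlier spots, position and single arrays. The normexp alternative added an offset of 50 to the signal.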

Additional observations from a re-analysis of the deposited data

Results flagged for a closer look

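Within the 4 PBS arrays of 6 h, 1 array stood far from the others in each of 3 measures, and it was a different array each time. The ratio of its gap to the group's whole range was 0.85 for JFC03290_1_code, where PBS replicate 4 was lowest, and 0.911 for AB468972, where PBS replicate 3 was lowest. It was 0.862 for the slope of the spike-in line, where PBS replicate 2 was lowest. These ratios exceed Dixon's critical value for groups of 4, chance marks about 1 in 20 groups, and 23 groups were examined.

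For 8 of the 17 probes named above, the effects of the preparations at 6 h differed. The test was limma, E. tarda FKC against S. iniae FKC, on 1 slide. The probes were chosen by their S. iniae arrays of 6 h, which this test uses again. For EF198069 and AB468972, chosen as falls, that choice favours a higher value after E. tarda FKC. The values were higher after E. tarda FKC by 4.42 for AB198061, 4.23 for AY533022, 3.02 for AB297385, 2.42 for JFC00907_1_code, 2.40 for AB468972, 2.23 for AB109394, 2.23 for AB070835 and 1.90 for EF198069. For AB468972 this is a fitted value against S. iniae arrays that were not above background. With those arrays taken at their dimmest level above background, the bound is 1.56-fold. The limma adjusted p of the 8 ranged from 6.02e-06 for AB198061 to 0.0415 for EF198069. The share of all tested probes that passed this test is not given, so the count of 8 cannot be set against it. EF198069 fell after S. iniae FKC, while its change of -0.70 after E. tarda FKC did not pass (adjusted p = 0.375). The effect of S. iniae FKC on AB198061 was larger at 12 h than at 6 h by 2.58 (limma adjusted p = 0.048).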

How the results depend on the processing

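The count of 176 calls (115 higher, 61 lower) moved by over 1.5 times with normexp and quantile normalization (805, 428 and 377), array weights (587, 341 and 246), PBS of both times as control (280, 184 and 96) and the fit of the 7 arrays alone (34, 24 and 10). With no filter on dim probes it was 286, with 152 lower. Without 1 array it ranged from 51 to 224, with 39 to 156 higher and 12 to 68 lower, and it moved by over 1.5 times without S. iniae replicate 2 or 3 or PBS replicate 1 or 3. The 15 GenBank calls became 40, 39 and 4 with normexp, array weights and the 7 arrays alone, and ranged from 7 to 22 without 1 array. The 105 calls for the change of effect between times became 57 with quantile normalization, 309 with normexp, 941 with array weights and 33 with the replicate block, and ranged from 18 to 232 without 1 array.

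The replicate block gave 160 calls (102 higher, 58 lower). Same-numbered arrays correlated at 0.061, 0.0831 and -0.0675 in their deviations, and differently numbered arrays at -0.225 to 0.119. So few values cannot decide whether the numbers pair the samples. For the 17 probes tracked, 304 of 349 values under other settings kept direction and call, 45 no longer passed and 0 turned. The groups of these 17 did not overlap, so leaving out 1 array could not turn a direction. Several settings alter only the filter or the estimate of the spread and keep the same fitted change. The tally of directions is therefore not a test. In the fit of the 7 arrays alone 12 of the 17 did not pass. Under every setting, and without any 1 array, 7 of the 176 were called, 1 higher and 6 lower. All 7 were above background on all 7 arrays and 0 carried a GenBank entry. The filter for all 22 arrays removes probes dim in 1 group. With that filter kept and only the fit of the 7 arrays alone set aside, 20 were called. Of these 20, 12 were higher and 3 carried a GenBank entry. Of the 176 calls, 109 were above background on all 7 arrays.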
